A study of Mus musculus with 30 samples.

Results

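Kdr, Flt1 and Plvap are genes best known from the endothelium, the cell layer that lines blood vessels, and the array measured all 3 in peripheral blood leukocytes. They are 3 of the 9616 genes named on the array, with 1 probe each among 13443. They were chosen by name, after earlier results of these same samples had shown Kdr and Plvap higher at day 1 and Flt1 lower at day 2. Their levels and changes are therefore given as a description, with no p-value.

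The blood came from mice of the inbred strain DBA/2, in 4 groups: 4 untreated samples, 4 samples drawn 1 day after an intraperitoneal dose of 83 mg per kg cyclophosphamide, 4 drawn 2 days after it and 3 drawn 5 days after it. Cyclophosphamide is an alkylating drug that is toxic to dividing cells. Each sample was read in 2 technical replicates, which were averaged. Every value is a log2 ratio of a blood sample over a bone marrow reference hybridised beside it, and 0 is called the marrow level here. The median ratio of every hybridisation is near 0, and blood always carried the same dye. A ratio of 0 therefore need not mean equal RNA in blood and marrow. The reference is called a pool of untreated cells in 1 label, while another names the cyclophosphamide dose for it; it is taken here as constant, and then drops out of every comparison between groups of blood samples.

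Vascular endothelial growth factors (VEGF) are secreted proteins that drive the growth of endothelial cells. Kdr encodes VEGF receptor 2, the tyrosine kinase that carries most of this signal, and Flt1 encodes VEGF receptor 1, which binds the same factors tightly but signals weakly and also exists as a secreted form that holds them back. Plvap encodes a protein of the diaphragms that span the pores and pits of endothelial cells, including those of bone marrow sinusoids. Outside the endothelium, Flt1 is also known from monocytes, and Kdr has been described in blood-forming precursors.

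The sequences before the start sites of both VEGF receptor genes are shown because the receptors are related proteins whose transcripts differed from untreated in opposite directions at day 1. Both come from the RefSeq promoter table of build GRCm38.p6, which matched 2 of the 3 genes, and each run is the 250 bases before the start on the minus strand. The Kdr window is chr5:75978456-75978705 and the Flt1 window is chr5:147726012-147726261. The gene records of the same build reach to 75979072 for Kdr and 147726438 for Flt1, so both windows lie inside the longest annotated extent of their gene. Capitals mark a cAMP response element (TGACGTCA), a TATA box (TATAAA) and GC boxes (GGGCGG), each searched on both strands.
Kdr: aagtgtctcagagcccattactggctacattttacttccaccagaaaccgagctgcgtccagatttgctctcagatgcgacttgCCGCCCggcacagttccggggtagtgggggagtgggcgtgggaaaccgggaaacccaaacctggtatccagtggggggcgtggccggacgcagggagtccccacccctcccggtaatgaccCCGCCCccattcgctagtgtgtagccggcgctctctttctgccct
Flt1: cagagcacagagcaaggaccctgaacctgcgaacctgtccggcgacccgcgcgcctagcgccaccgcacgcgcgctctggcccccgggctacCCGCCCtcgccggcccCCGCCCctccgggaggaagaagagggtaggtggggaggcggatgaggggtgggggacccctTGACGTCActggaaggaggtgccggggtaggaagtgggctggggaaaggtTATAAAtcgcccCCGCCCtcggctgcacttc

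The Flt1 window held 1 TATA box, beginning 31 bases before the start, and 1 cAMP response element, beginning 81 bases before it. The letters of neither were in the Kdr window. Among the 32851 promoter windows of this length in the table, 12.4% held a TATA box and 1.55% a cAMP response element. GC boxes were in both windows, 2 in Kdr and 3 in Flt1, and in 32.7% of all windows. The core letters of sites for ETS factors, a family that acts in endothelial and blood cells, are GGAA, which occurred 4 times in each window and in 93.4% of all windows. The share of G and C was 61.6% in the Kdr window and 70.4% in the Flt1 window, against a median of 52.4%. These are matches of letters, and none of the measurements here bears on what binds them.

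Kdr was below the marrow level in untreated blood and above it in 3 of 4 samples at day 1. In untreated replicates 1 to 4 its log2 ratio was -0.59, -0.56, -0.67 and -0.12. At day 1 the ratio was 0.65, 0.75 and 0.78 in replicates 1, 2 and 4, and -0.23 in replicate 3. Replicates 1, 2 and 4 of day 1 were thus the 3 highest Kdr values of the series, and replicate 3 fell inside the untreated range. The group means were -0.49 ± 0.25 (SD, n = 4) for untreated and 0.48 ± 0.48 (SD, n = 4) for day 1. Their difference was 0.97 ± 0.23 (SE), a 1.96-fold higher level, and it ranked number 77 from the highest of 6515 tested features.

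The difference of Kdr from untreated was smaller at day 2, and at day 5 its mean was close to the untreated one. At day 2 the log2 ratio was 0.13, -0.56, 0.31 and -0.0070 in replicates 1 to 4, with 3 samples near or above the marrow level and replicate 2 at the untreated level. At day 5 it was -0.072, -0.67 and -0.45. Against untreated, the difference was 0.45 ± 0.23 (SE) at day 2 and 0.089 ± 0.25 (SE) at day 5, and in both cases the groups overlapped. In order of their means the groups ran untreated, day 5, day 2 and day 1, and each neighbour in that order overlapped the next.

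Plvap took the same course at day 1, and more uniformly. In untreated replicates 1 to 4 its log2 ratio was -0.42, -0.33, -0.46 and -0.61. At day 1 it was 0.38, 0.71, 0.15 and 0.44. All untreated samples lay below the marrow level and all day 1 samples above it, so the groups did not overlap; 10.5% of tested features had day 1 samples that all lay above the untreated ones. The difference was 0.88 ± 0.23 (SE), a 1.83-fold higher level, from -0.46 ± 0.12 (SD, n = 4) to 0.42 ± 0.23 (SD, n = 4).

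From day 2 on, Plvap differed widely between samples of one group. The day 2 values were -0.27, -0.20, 0.19 and 0.51, all of them above the 4 untreated values. Of tested features, 11.2% had day 2 groups above untreated without overlap. The lowest day 2 value, -0.27, exceeded the highest untreated value, -0.33, by less than the median technical difference of Plvap, 0.092. At day 5 the values were -0.0052, -0.52 and 0.73, which spread from the untreated range to above the highest day 1 value. The difference from untreated was 0.51 ± 0.23 (SE) at day 2 and 0.52 ± 0.24 (SE) at day 5. The day 5 difference turned on single samples, at 0.19 without day 5 replicate 3 and 0.82 without day 5 replicate 2, and the day 5 range overlapped the untreated one. The standard deviation within groups was 0.12 for untreated, 0.23 at day 1, 0.37 at day 2 and 0.63 at day 5. In order of their means the groups ran untreated, day 2 (0.057), day 5 (0.069) and day 1, and only untreated and day 2 were neighbours without overlap.

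Flt1 was lower than untreated at day 1, when Kdr and Plvap were higher, lowest at day 2 and highest at day 5. In untreated replicates 1 to 4 its log2 ratio was 0.036, 0.11, 0.39 and 0.28, all above the marrow level. At day 1 it was -0.59, -0.58, 0.025 and -0.031. The day 1 samples all lay below the untreated ones, as in 7.71% of tested features, yet they fell into a low pair and a pair close to untreated. The gap between 0.025 at day 1 and 0.036 in untreated was smaller than the median technical difference of Flt1, 0.11. The group means differed by -0.50 ± 0.15 (SE), from 0.20 ± 0.16 (SD, n = 4) to -0.29 ± 0.34 (SD, n = 4).

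At day 2 the log2 ratio of Flt1 was -0.87, -1.03, -1.05 and -0.76, the 4 lowest values of the series. The difference from untreated was -1.13 ± 0.15 (SE), or 0.456 of the untreated level, and ranked number 118 from the lowest of 6515 tested features. Of all tested features, 10.2% had day 2 samples that all lay below the untreated ones. The day 2 samples also lay below every day 1 sample (4.82% of tested features did so), with a difference of -0.64 ± 0.15 (SE).

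At day 5 the log2 ratio of Flt1 was 0.62, 0.75 and 0.35, against a highest untreated value of 0.39. Replicates 1 and 2 of day 5 thus exceeded every untreated sample and replicate 3 did not. The difference from untreated was 0.37 ± 0.17 (SE). Against day 2, Flt1 at day 5 was higher by 1.51 ± 0.17 (SE), or 2.84-fold, with no overlap (14.4% of tested features were higher in this way). Against day 1 it was higher by 0.87 ± 0.17 (SE), also with no overlap (14.5% of tested features). For none of the 3 genes was day 5 free of overlap with untreated, as it was for 13.6% of tested features. In order of their means the groups ran day 2, day 1, untreated and day 5; day 5 and untreated were the neighbours whose samples overlapped.

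**Figure D1:**
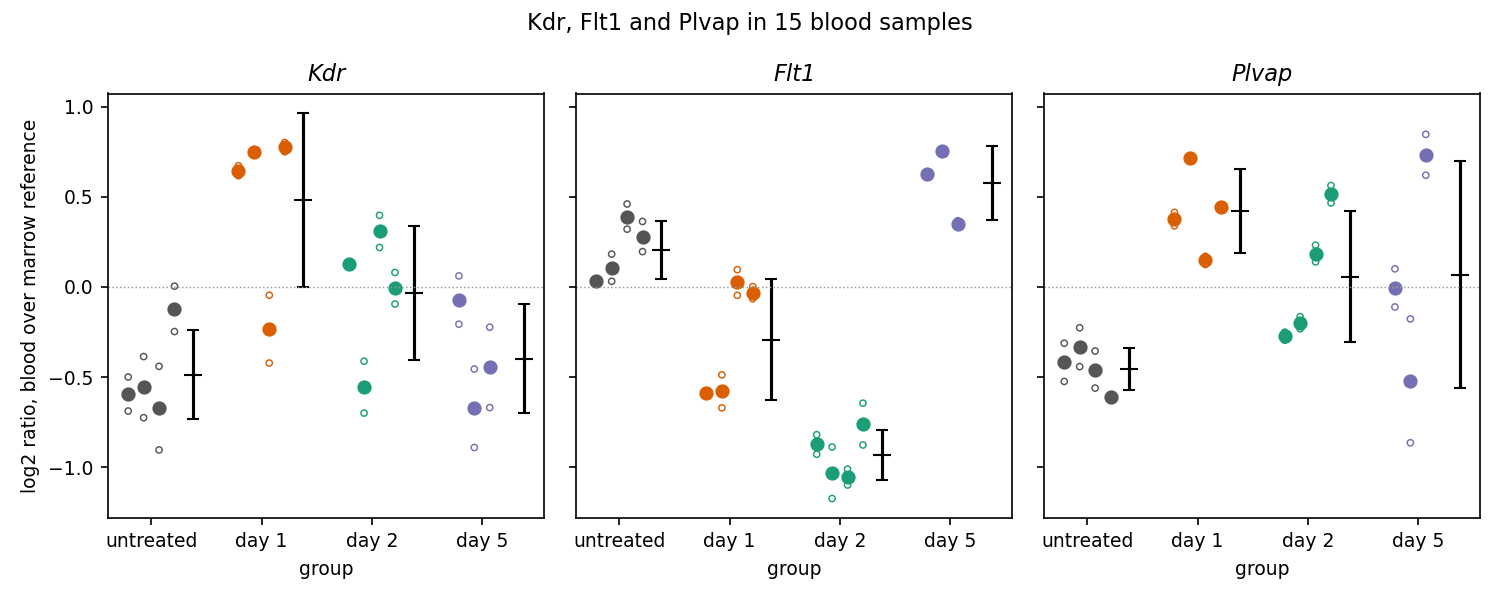
Log2 ratios of blood over marrow reference (vertical axis) for Kdr, Flt1 and Plvap in untreated, day 1, day 2 and day 5 samples. Filled points are samples, open points their technical replicates, and bars the group mean with its SD. Kdr and Plvap have their highest group means at day 1, while Flt1 is lowest at day 2 with a mean of -0.93.

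Technical replicates of a sample were closer than the groups that differed most. The median absolute difference between both replicates was 0.27 for Kdr, 0.11 for Flt1 and 0.092 for Plvap. Kdr had values in 28 of 30 columns, with 1 technical replicate missing in day 1 replicate 2 and in day 2 replicate 1, and Flt1 and Plvap had values in all 30. The widest split was in Plvap, by 0.69 in day 5 replicate 2. The labels call the samples biological replicates, but nothing in them ties a sample to a single animal. The spread between samples can hold both biological and technical differences. Blood leukocytes are a mixture, in which more cells of a type and more RNA per cell cannot be told apart.

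Other genes of endothelial cells were read as a list. Of a list of 76 endothelial genes, 53 were on the array and 20 had values in enough samples to be tested: at least 3 of 4 in the untreated, day 1 and day 2 groups and at least 2 of 3 at day 5. At day 1, 2 of the 20 were higher and 0 lower at an adjusted p under 0.05 (limma, Benjamini-Hochberg over 6515 features), against 2.29% of all tested features higher, 2.32% lower and 4.6% in all. The median change over the list was 0.0042, beside 0.032 over all tested features, and 10 of 20 were positive. At day 2, 2 were higher and 0 lower (4.83% of all features were higher, 7.84% lower and 12.7% called in all), with a median of 0.081 beside 0.059. At day 5, 0 of 20 were called (1.09% of all features were), with 14 positive and a median of 0.064 beside 0.0044; 1134 of the 6515 features (17.4%) had an unadjusted p under 0.05 in that comparison. The mean log2 ratio over the 15 list genes with values in every sample differed from the median change: it lay between -0.017 and 0.051 in untreated, 0.23 and 0.28 in day 1, 0.016 and 0.22 in day 2 and 0.061 and 0.15 in day 5 samples, so that every day 1 sample was above every untreated one. The list's largest day 1 changes, those of Rhoj, Rasip1 and Tm4sf1, carried most of this: without these 3 genes, left out after their values were seen, the mean over the other 12 lay between -0.031 and 0.049 in untreated and 0.028 and 0.072 in day 1 samples, which overlap. Between treated groups, day 5 differed from day 1 in 4 of the 20 (18.8% of all features) and from day 2 in 7 of the 20 (25.5% of all features).

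No tested gene that defines endothelial cells was called against untreated. Of 8 defining markers, all on the array, 3 could be tested, Cdh5, Tek and Robo4, and Emcn, which encodes endomucin, had no value in any sample. A missing value does not show that a transcript was absent. The general leukocyte genes Ptprc (CD45) and Itgb2 had values in only 5 and 2 samples. Cdh5, the adhesion protein VE-cadherin, had a day 1 change of -0.097 ± 0.13 (SE, limma adjusted p = 0.73), with log2 ratios of 0.19 ± 0.11 (SD, n = 4) in untreated and 0.090 ± 0.25 (SD, n = 4) in day 1 samples. Its probes disagreed: the probe with values in all samples averaged -0.0080 in untreated and -0.17 at day 1, and the other averaged 0.48 over 3 untreated and 0.83 over 2 day 1 samples. Robo4, an endothelial guidance receptor, changed by 0.012 ± 0.15 (SE, limma adjusted p = 0.98) at day 1.

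Tek, the angiopoietin receptor Tie2, was the defining marker with the clearest separation. Its log2 ratio ran from 0.23 to 0.32 in untreated and from 0.42 to 0.57 in day 1 samples. The groups did not overlap, as in 10.5% of tested features, but the change of 0.21 ± 0.087 (SE) did not pass the test (limma adjusted p = 0.17). At day 2 the Tek values ran from 0.42 to 0.62, also above all untreated ones, as in 11.2% of tested features. That change of 0.20 ± 0.087 (SE) did not pass either (limma adjusted p = 0.14). Tie1, Cldn5, Egfl7 and Esam had values in 2, 6, 6 and 5 of 15 samples, too few to be tested. Pecam1, the CD31 antigen shared by endothelium, platelets and leukocytes, changed by -0.0032 ± 0.28 (SE, limma adjusted p = 1.00) at day 1.

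Tm4sf1 and Rasip1 were the list members called higher at day 1. Tm4sf1, a surface protein abundant on endothelial cells, rose by 0.72 ± 0.14 (SE, limma adjusted p = 0.013). Its log2 ratio was 0.14, -0.090, 0.029 and -0.27 in untreated replicates 1 to 4 and 0.49, 0.73, 0.60 and 0.88 at day 1, with no overlap (10.5% of tested features were higher in this way). Without day 1 replicate 4 its adjusted p was 0.0501. Later the Tm4sf1 change was smaller, 0.19 (adjusted p = 0.42) at day 2 and 0.36 (adjusted p = 0.24) at day 5.

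Rasip1, which encodes a Ras-interacting protein needed for vessel lumens, rose by 1.12 ± 0.30 (SE, limma adjusted p = 0.044) at day 1 and by 1.17 ± 0.30 (SE, adjusted p = 0.017) at day 2. Its log2 ratio was 1.15, 1.35, 0.13 and 0.94 at day 1, with replicate 3 the lowest, as for Kdr and Plvap. The untreated values were -0.081, -0.047, 0.014 and -0.79. The day 1 call was lost on leaving out any 1 untreated sample, or 1 of replicates 1, 2 and 4 of day 1, replicate 4 of day 2 and replicate 1 of day 5 (adjusted p from 0.051 to 0.15), and the day 2 call without untreated replicate 4 (adjusted p = 0.062).

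Calcrl, a receptor for adrenomedullin that supports vessel growth, rose by 0.42 ± 0.13 (SE, limma adjusted p = 0.042) at day 2, from -0.81 ± 0.18 (SD, n = 4) to -0.39 ± 0.15 (SD, n = 4). That call was lost when 1 of these samples was left out: untreated replicates 3 and 4, replicates 3 and 4 of day 1, and replicates 2, 3 and 4 of day 2 (adjusted p from 0.052 to 0.13).

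Among the members of the list that were not called, Rhoj had the largest change. Rhoj, a small GTPase of endothelial cells, had log2 ratios of -0.23, 0.32, 0.88 and 0.92 in untreated replicates 1 to 4 and 1.60, 1.58, 2.10 and 1.45 at day 1. All day 1 samples lay above the untreated ones, as in 10.5% of tested features. The untreated values were spread widely, and the change of 1.21 ± 0.38 (SE) did not pass (limma adjusted p = 0.077). Here day 1 replicate 3 was the highest sample, not the lowest as for Kdr. Icam2, Sox7, Bmx and Cd93 had their largest changes against untreated at later times, -0.53 for Icam2 at day 5, -0.48 for Sox7 at day 2, and 0.42 and 0.41 for Bmx and Cd93 at day 5 (limma adjusted p = 0.060, 0.081, 0.13 and 0.17).

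In the pathway that VEGF receptors belong to, the ligands and co-receptors were mostly without values. Vegfb, Vegfd and Pgf had a value in 1 sample each and Vegfc in 7. The third receptor, Flt4, had values in 7 samples and the co-receptor Nrp2 in 8, while Nrp1 had none. None of these could be tested, and their missing values do not show that the transcripts were absent. Of 73 pathway genes listed, 53 were on the array and 24 were tested, nearly all of them signalling proteins used by most cells.

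At day 1, 1 of the 24 pathway genes was higher and 0 lower; at day 2, 2 were higher and 1 lower; at day 5, 0 were called. These counts are near the shares of 4.6%, 12.7% and 1.09% over all tested features and show nothing particular to the pathway. With quantile normalization the split was 0 higher and 1 lower at day 1, and 1 higher and 1 lower at day 2, while the endothelial list kept 2 higher in both and gained 1 lower at day 2. The median change over the list, in the order of the days, was 0.16, 0.030 and -0.045, beside 0.032, 0.059 and 0.0044 over all tested features.

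Hif1a, the oxygen-regulated transcription factor that turns on VEGF genes, was the pathway gene called at both day 1 and day 2. Its log2 ratio was between 0.77 and 1.12 in untreated samples, between 1.61 and 2.11 at day 1 and between 1.47 and 2.33 at day 2. It rose by 0.86 ± 0.20 (SE, limma adjusted p = 0.031) at day 1 and by 0.89 ± 0.20 (SE, adjusted p = 0.0084) at day 2. With quantile normalization both rises were smaller and lost their call (0.47 and 0.55, adjusted p = 0.14 and 0.058), and the day 1 call was also lost when 1 of untreated replicates 2, 3 and 4 or of day 1 replicates 1, 2 and 4 was left out (adjusted p from 0.059 to 0.11).

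Iqgap1, a scaffold protein that binds the activated VEGF receptor 2, rose by 0.99 ± 0.17 (SE, limma adjusted p = 0.0010) at day 2, with values in 3 of 4 day 2 samples. Vav2, a guanine nucleotide exchange factor, fell by 2.52 ± 0.37 (SE, limma adjusted p = 2.85e-04) at day 2. The Vav2 values at day 1 were -1.64, -1.61, -0.39 and -0.72 in replicates 1 to 4, with the low pair in replicates 1 and 2, as for Flt1.

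**Figure D2:**
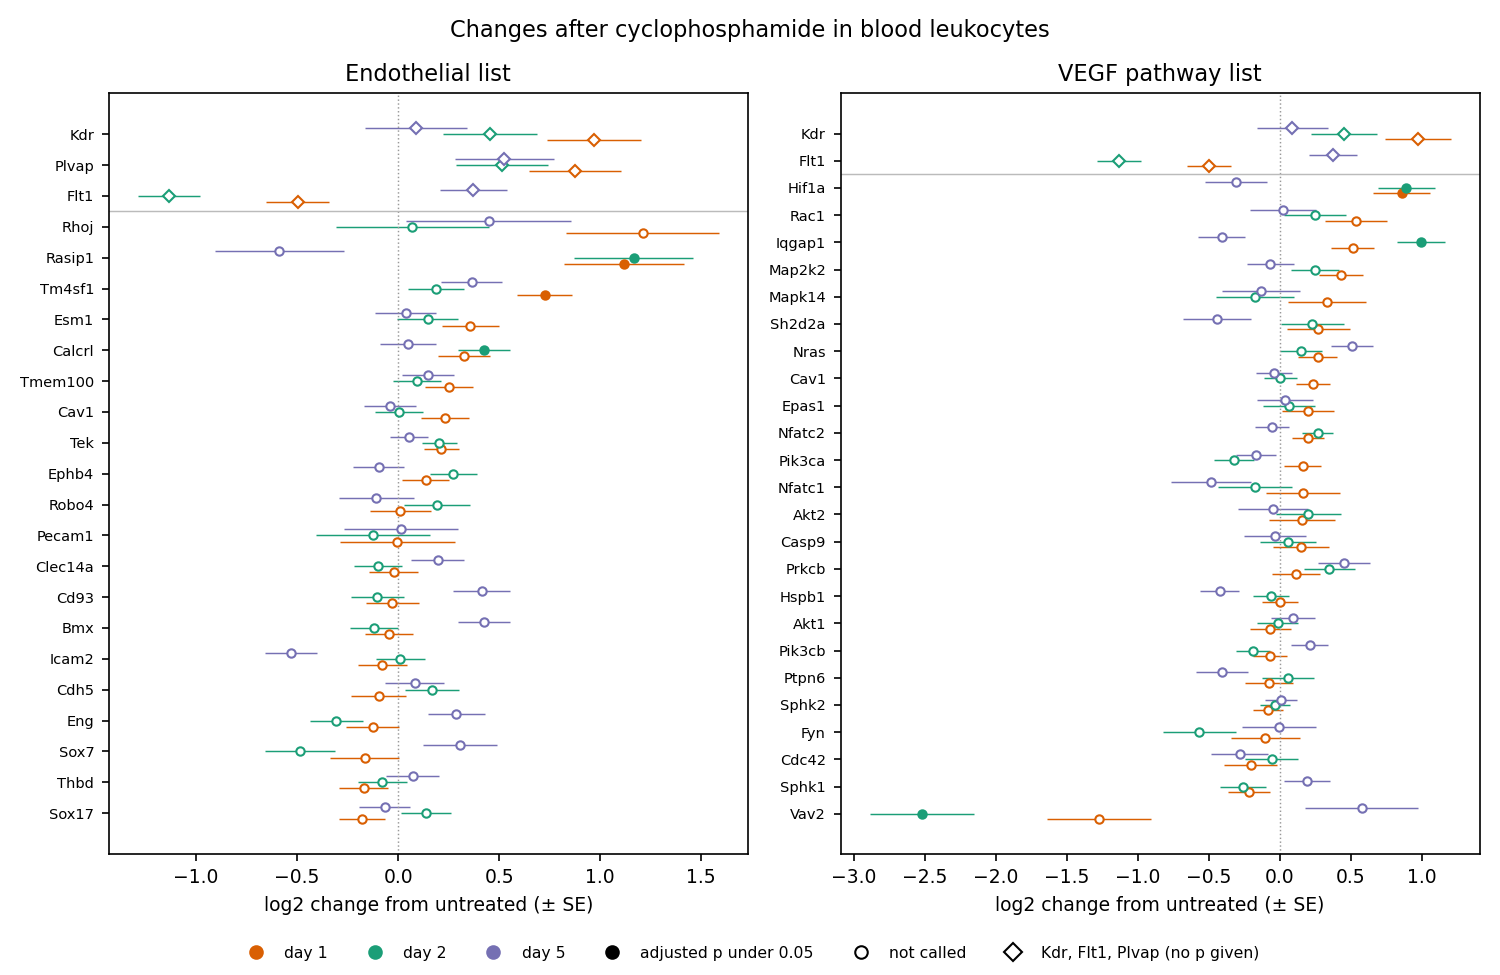
Log2 changes from untreated with their SE (horizontal axis) for each tested gene of the endothelial list and the VEGF pathway list, with Kdr, Flt1 and Plvap as diamonds above the line. Filled circles passed an adjusted p under 0.05. Rasip1 and Tm4sf1 are the filled endothelial genes at day 1, and Vav2 has the lowest change, -2.52 at day 2.

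Platelets circulate in the same blood, and across the series their transcripts were higher where Plvap was high. The mean log2 ratio over 7 platelet genes lay between 2.06 and 2.25 in untreated, 3.34 and 3.65 in day 1, 2.15 and 3.31 in day 2 and 2.37 and 3.62 in day 5 samples. At day 1, 4 of the 7 tested platelet genes were called higher, Treml1, Clu, Itga2b and F2rl2, with changes of 1.96, 1.70, 1.37 and 1.33 (limma adjusted p = 0.016, 0.022, 0.013 and 0.025). Over all tested features, 2.29% were called higher at day 1. Of the 7, 0 were called at day 2 and 1 at day 5, F2rl2, beside 12.7% and 1.09% of all tested features. All 7 changes were positive at day 2 and at day 5, with medians of 0.72 and 0.91. Across the 15 samples Plvap and the platelet mean had r = 0.89 (Spearman's rank correlation 0.79), 0.87 without the 2 samples farthest from the median platelet mean, and 0.78 on deviations from the group means.

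At day 2 the platelet mean was 2.15, 2.61, 3.31 and 3.16 in replicates 1 to 4, and Plvap was high in the same replicates, 3 and 4. At day 5 it was 3.42, 2.37 and 3.62, and the low sample, replicate 2, was also the low one for Plvap. Within day 1, Plvap was lowest in replicate 3, where the platelet mean was highest. For Kdr the relation to the platelet mean was looser, with r = 0.57 over all samples (Spearman's rank correlation 0.39) and 0.16 on deviations from group means. Without the 2 samples farthest from the median platelet mean, r for Kdr was 0.70. The mean over 8 erythroid genes, those of the red cell line, had r = -0.56 with Kdr (Spearman's rank correlation -0.61). On deviations from group means, r of Kdr with the erythroid mean was -0.50. Day 1 replicate 3 had the lowest Kdr of its group at the highest platelet mean of the series, 3.65. These correlations are between genes read on the same arrays, so effects of array and processing can enter both sides. The part of platelets or red cell precursors in the changes of Kdr and Plvap was not tested.

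Flt1 was lowest at day 2, when 5 of 6 tested monocyte genes and 2 of 10 tested erythroid genes were also called lower. The heme synthesis gene Alas2 of red cell precursors had log2 ratios of -0.47, -0.30, 0.39 and 0.77 in untreated, -1.73, -1.60, -0.73 and -1.15 in day 1 and 0.64, 0.49 and 1.39 in day 5 samples. In the day 2 replicates Alas2 was at -1.33, -3.24, -3.05 and -3.30. At day 1 the lower values of both genes were in replicates 1 and 2, while day 2 replicate 1, low in Flt1, had more Alas2 than those samples. Across 15 samples Flt1 and Alas2 had r = 0.91, but 0.34 on deviations from the group means. Of 10 tested erythroid genes, 0 were called at day 1 and 2 were called lower at day 2, Alas2 and Bnip3l. Over all tested features, 4.6% were called at day 1 and 7.84% were called lower at day 2. The median day 2 change of the erythroid list was -0.33, beside 0.059 over all tested features. The day 2 changes of 4 of the 10 were positive, 1.31 for Klf1, 0.50 for Kel, 0.48 for Ermap and 0.12 for Gata1, none of them called (limma adjusted p from 0.20 to 0.57). The list mean had r = 0.77 with Flt1 over all samples and -0.10 on deviations from the group means. That mean over 8 genes lay between -1.12 and -0.55 in untreated and between -1.61 and -1.08 in day 2 samples.

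The monocyte list, a cell type in which Flt1 is known, had 3 of 6 tested genes called lower at day 1 and 5 of 6 at day 2, among them Ms4a6c and Adgre1 with changes of -1.73 and -1.20 at day 2 (limma adjusted p = 4.07e-05 and 3.02e-04). Over all tested features, 2.32% were called lower at day 1 and 7.84% at day 2. The mean over 4 monocyte genes ran from 0.66 to 1.20 in untreated, 0.15 to 0.68 in day 1, -0.24 to -0.15 in day 2 and 0.63 to 0.88 in day 5 samples. With Flt1 it had r = 0.77 over all samples and -0.43 on deviations from the group means. The part of either cell type in the course of Flt1 was not tested. Genes of mural and stromal cells, the neighbours of endothelium in vessel walls, had 0 of 6 tested members called against untreated at day 1, day 2 or day 5. The shares called over all tested features were 4.6%, 12.7% and 1.09%.

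**Figure D3:**
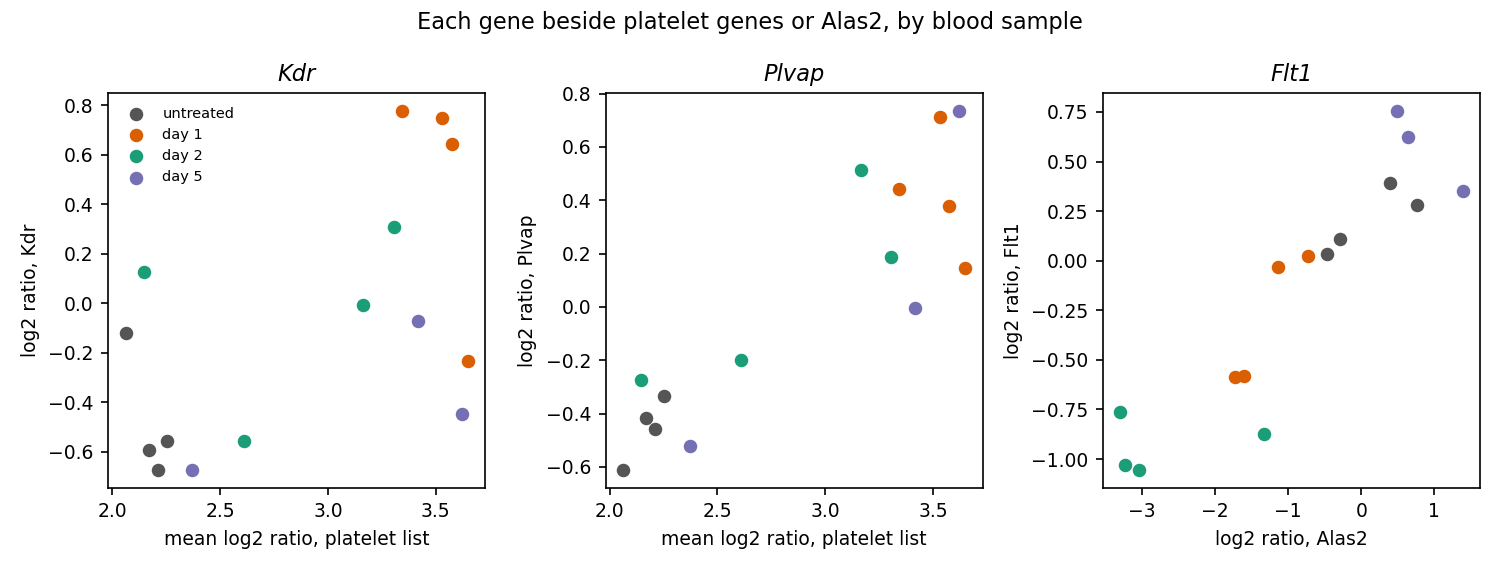
Each point is a blood sample, coloured by group: the log2 ratio of Kdr and Plvap (vertical axes) against the mean log2 ratio of 7 platelet genes, and that of Flt1 against Alas2. Plvap follows the platelet mean (r = 0.89 over 15 samples), Kdr does so less (r = 0.57), and Flt1 is lowest in the 4 day 2 samples, of which 3 also hold the lowest Alas2 values.

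Kdr and Plvap themselves were only loosely related, with r = 0.63 over 15 samples and 0.31 on deviations from the group means, and Flt1 had r = -0.46 with Kdr and -0.33 with Plvap. For each of them the 5 most similar genes were sought among 3559 named genes with values in all 15 samples, by Pearson's r over samples. None of the 15 genes found this way belonged to the endothelial or VEGF lists, which had only 27 genes among these candidates.

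The genes most like Flt1 had the highest r over all samples of the 3 sets, but not on deviations from the group means, where those most like Plvap reached as high. They were Tnfrsf10b, a death receptor (r = 0.99), Polr3c, a subunit of RNA polymerase III (0.99), Pbsn, the prostate protein probasin (0.98), Daw1, a factor for axonemal dynein (0.98), and Elac2, a tRNA processing enzyme (0.98). On deviations from the group means r was between 0.84 and 0.92. All 5 had larger day 2 changes than Flt1, -1.37 for Tnfrsf10b, -1.72 for Polr3c, -1.63 for Pbsn, -2.24 for Daw1 and -1.43 for Elac2. As the genes with the highest of 3559 correlations they are close to Flt1 by construction.

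The genes most like Plvap were Pnpla8, a phospholipase (r = 0.93), St7 (0.92), Acot7, an acyl-CoA thioesterase (0.92), Vps37a, a sorting protein of endosomes (0.92), and Derl1, a protein of the endoplasmic reticulum channel for misfolded proteins (0.91). On deviations from the group means r lay between 0.84 and 0.94. The closest to Kdr were Tctn2, a protein of the base of cilia (r = 0.91), Rbpms2, an RNA-binding protein (0.86), Ccdc59 (0.85), Olfr138, an olfactory receptor gene (0.85), and Akr1c12, an aldo-keto reductase (0.85). Rbpms2 had the largest day 1 change of these, 1.51, from a mean log2 ratio of 0.28 in untreated to 1.79 at day 1.

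The samples were checked for leukocyte transcripts and for overall likeness. Cd53, a membrane protein of leukocytes in general, had a log2 ratio of 1.62 ± 0.28 (SD, n = 4) in untreated blood and was higher by 0.82 at day 2 (limma adjusted p = 0.025). Of the 10 general leukocyte genes, 5 could be tested, and the other 4 of these were nearer the marrow level in untreated blood, at 0.57 for Cd52, 0.087 for Rac2, -0.014 for Lcp1 and -0.42 for Arhgdib. Since the reference is itself rich in blood-forming cells, these ratios show relative and not absolute levels. Between 5314 and 9398 of 13443 probes had a value in a column. The median r between samples was 0.87 within day 1 and 0.75 to 0.76 within the other groups.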

How the data were processed

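The deposited values are log ratios of Cy5 (blood) over Cy3 (marrow reference), per the labels' dyes, taken here as log2; their base, background correction, normalization and filter are not stated by any source used, and with base e the values would be natural logarithms and the folds larger. The 30 columns have medians between -0.0028 and 0.025. Intensities were not analysed here, so signal over background is unknown, and the number of samples limits the precision. Technical replicates were averaged into 15 samples. Of the probes, 10032 had 1 gene symbol in the platform annotation, 170 several and 3241 none; only the first kind are named, and probes of a symbol were averaged.

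Changes, their SE and adjusted p-values come from limma 3.58.1 (R 4.3.3), fitted to the 15 samples with a mean for each of 4 groups; 6515 features were tested, and the fit was checked on simulated data. The members and the gene lists were chosen with earlier results of these data known. Named genes are the members, list genes called against untreated, the 5 largest uncalled endothelial changes, up to 4 called genes of other cell type lists, and the 5 genes most like each member; Cdh5, Tek, Robo4, Pecam1 and the unread markers were added as defining or shared endothelial genes. Alternatives were quantile normalization, no filter, complete features, single technical replicates, fits of 2 groups, a replicate block, array weights and leaving out each sample. A table of protein sequences was not used here.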

Additional observations from a re-analysis of the deposited data

Results flagged for a closer look

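Kdr in day 1 replicate 3 was -0.23, far from the other day 1 samples, which lay between 0.65 and 0.78. Without that sample the day 1 change of Kdr was 1.21. Rasip1 in untreated replicate 4, at -0.79, and Bmx in day 2 replicate 4, at -0.22, also stood apart from their groups. Of 40 groups of 4 samples examined for the members and the named list genes, these 3 stood apart, where chance gives about 1 in 20.

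Flt1 was below the untreated mean in every sample of day 1 and day 2 and above it in every sample of day 5. Its level was 0.87 higher at day 5 than at day 1 and 1.51 higher than at day 2, and these differences were not tested.

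Several named list genes differed between days in the limma test, with adjusted p from 4.65e-05 to 0.040, in comparisons where 18.8% (day 5 against day 1) and 25.5% (day 5 against day 2) of all tested features were called. At day 5 the change of Rasip1 was -1.71 against day 1 and -1.75 against day 2, that of Hif1a -1.17 and -1.20, that of Iqgap1 -0.92 and -1.40, and that of Icam2, an adhesion ligand of endothelium and leukocytes, -0.45 and -0.54. Vav2 was higher at day 5 by 1.85 and 3.10, Bmx, a tyrosine kinase, by 0.47 and 0.54, and Cd93, a receptor of endothelium and myeloid cells, by 0.44 and 0.52. Sox7, an endothelial transcription factor, was 0.79 higher at day 5 than at day 2.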

How the results depend on the processing

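The changes of Kdr, Flt1 and Plvap moved by less than 1 pooled SD within groups in every alternative. This was a loose check. The filters and the fit of 2 groups return the same difference of means, and dropping 1 sample shifts only part of a group mean. Leaving out single samples gave 0.87 to 1.21 for Kdr and 0.78 to 0.97 for Plvap at day 1, and -1.19 to -1.07 for Flt1 at day 2; the day 5 change of Kdr ran from -0.074 to 0.23 and had no stable sign, and that of Plvap ran from 0.19 to 0.82. Of the endothelial list, 1 member was called at day 1 and at day 2 without the filter and with the replicate block. With technical replicate 1 or 2 alone, 1 was called at day 2. In a fit of 2 groups or with array weights, 3 were called at day 1. The highest count at day 2 in such alternatives was also 3. At day 5, 1 was called on complete features or with technical replicate 1 alone. Of the VEGF list at day 1, 2 were called on complete features, 0 with technical replicate 2 alone or the replicate block, 3 in a fit of 2 groups and 5 with array weights; at day 5, 1 with technical replicate 1 alone. Leaving out single samples gave 0 to 3 endothelial calls at day 1 and at day 2 and 0 to 1 at day 5, and 0 to 3 VEGF calls at day 1 and 0 to 1 at day 5. With the replicate block Rasip1 and Hif1a at day 1 and Calcrl at day 2 lost their calls (adjusted p = 0.062, 0.066 and 0.079). Samples of equal number are not stated to share an animal or day. The correlation of their deviations was over 0.1 in 7 of 21 pairs, and in 19 of 63 pairs of unequal number. Such correlations cannot decide whether samples were paired. Over all features, leaving out single samples gave 60 (without day 1 replicate 2) to 438 (without day 1 replicate 3) calls at day 1, against 300, and 27 (without day 5 replicate 1) to 224 (without day 5 replicate 3) at day 5, against 71; the other alternatives gave 107 (replicate block) to 903 (array weights) and 34 (2 groups) to 116 (complete features). The cause of these shifts was not tested. Each member has 1 probe, so probes could not be set against each other.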
